A study of Mus musculus with 9 samples.

Results

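Haem is built from glycine and succinyl-CoA by a chain of enzymes that starts and ends in the mitochondrion. The genes described here are 8 enzymes of that chain, taken by symbol from the 31053 genes of the count matrix: Alas1, Alas2, Alad, Uros, Urod, Cpox, Ppox, and Fech. The enzyme between Alad and Uros was not analysed here. The genes were read in bone marrow cells of 9 female mice by single cell RNA sequencing, 3 mice each of NZB, NZW, and their hybrid NZBWF1, with 1 library per mouse. NZBWF1 mice are first-generation offspring of a female NZW and a male NZB mouse, so a mean of the parents is the natural reference for the hybrid. All mice were untreated, 9 to 10 weeks old, and came from The Jackson Laboratory. Marrow was taken from the femur and treated with a red cell lysis buffer, which limits what the cells can show of the last stages of red cell formation. The question put to these enzymes was at which stage of erythroid maturation each was present, in which other marrow cells, and whether the parents and the hybrid differed.

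The first step, condensation of glycine with succinyl-CoA, is carried out by a ubiquitous enzyme encoded by Alas1 and by an erythroid enzyme encoded by Alas2, and is regarded as the step that sets the rate of the pathway. Alas1 is known to be repressed by haem in most tissues, while Alas2 is switched on by erythroid transcription factors and its mRNA carries an iron-responsive element that ties translation to the iron supply. The enzymes that follow are housekeeping proteins in every nucleated cell and are strongly raised in erythroid precursors, which make most of the body's haem for haemoglobin.

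All 8 genes are protein coding. On the mm10 build, in the annotation GENCODE vM21, Alas1 lies at chr9:106233455-106248654 on the minus strand, Alas2 at chrX:150547375-150570638 on the plus strand, and Alad at chr4:62509169-62519918 on the minus strand. Uros lies at chr7:133686243-133710072 (minus), Urod at chr4:116989965-116994413 (minus), Cpox at chr16:58670292-58717636 (plus), Ppox at chr1:171275990-171281186 (minus), and Fech at chr18:64452914-64490251 (minus).

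A total of 36525 cells were analysed, 2359 to 5217 per mouse, with 7712149 to 16181816 unique molecular identifiers (UMIs) per mouse. UMIs count captured RNA molecules at their 3′ ends, and levels are given as CPM, the UMIs of a gene per 1000000 UMIs of all genes in the same cells of a mouse. The kit reads transcript ends, so each gene is compared with itself across cells and not with other genes. The early erythroid gate held 1979 cells (60 to 373 per mouse) with under 10% globin UMIs. Each had at least 3 UMIs over at least 2 of 7 early erythroid genes: Car1, Klf1, Epor, Ermap, Rhd, Cldn13, and Aqp1. The late gate, at 10% globin UMIs or more, held 92 cells, and 10 or more of them only in the 3 NZW mice. Cells were therefore also split at 1% globin UMIs, a limit set after the cell numbers were seen. Below it were 1439 cells (42 to 270 per mouse) that met the early gene rule. At or above it were 662 cells (22 to 177 per mouse), for which that rule was not applied. Both sets are called erythroid below. All 11 erythroid markers were present in each of these sets. Car1, Klf1, Ermap, and the globin genes among them also define the gates, so their presence is no separate check. None of the 8 enzymes took part in defining a gate or cluster. Of the early gate cells, 1905 lay in erythroid-like clusters, as did 78 of the late gate cells, while 8 late gate cells lay in macrophage-like clusters. Of the cells below and above the 1% limit, 1368 and 615 lay in erythroid-like and 3 and 21 in macrophage-like clusters. Megakaryocyte markers in the early gate summed to 925 CPM in NZB replicate 3 and 324 CPM in NZBWF1 replicate 2, against 8.14 to 26.0 CPM in the other mice. Barcode sequences found in more than 1 library made up 0.876% of the 39051 barcodes kept before removal of doublets.

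The erythroid factor Gata1 binds GATA words, so the 250 bases before each RefSeq start (GRCm38.p6) of the 7 enzymes other than Fech were searched on both strands for the word AGATAA, the word AGATAG, the word TGATAA, and the word TGATAG. At least 1 of these words was found in 26.5% of 32851 such promoter windows. Alas2 held 1 word, Cpox held 2 words that overlap, and the second of the Uros starts held 2, whereas no word was found in the windows of Alas1, Alad, Urod, and Ppox. Windows of 60 bases are shown for each gene that held a word: Alas2 (chrX:150547304-150547363, plus strand, word at 86 to 81 bases before the start), Cpox (chr16:58670093-58670152, plus strand, words at 91 to 81 bases before the start), and the more distant of the words of Uros (chr7:133702673-133702732, minus strand, word at 205 to 200 bases before the start). The nearer word of Uros lay at 68 to 63 bases before the start. They are reference sequence, not read from these mice, and capitals mark the GATA words, which here read on the opposite strand.
Alas2 promoter: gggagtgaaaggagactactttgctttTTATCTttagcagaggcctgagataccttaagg
Cpox promoter: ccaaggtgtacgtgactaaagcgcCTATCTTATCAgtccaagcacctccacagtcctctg
Uros promoter: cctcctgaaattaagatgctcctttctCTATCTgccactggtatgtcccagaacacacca

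The iron-responsive element was searched for as the loop CAGTGN closed by 5 paired bases on each side and an unpaired C 5 bases before the loop, in the first 200 bases of GENCODE transcripts. Of the 8 enzymes only Alas2 matched, at chrX:150547461-150547483 (plus strand) in exon 1 before the start codon, and 31 of 21901 protein-coding genes (0.142%) matched in all. The match of 23 bases is shown with its loop in capitals. It acts on translation, which these counts do not measure.
Alas2 iron-responsive element: gttcgtcctCAGTGCagggcaac

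Expression of the erythroid form, Alas2, came mainly from cells that had begun to make globin. Grouped by the globin share of their UMIs, with globin UMIs left out of the total, the cells under 0.1% had a mean of 1.88 CPM (lowest mouse 0, highest 5.43, n = 9). The mean was 31.2 CPM at 0.1% to 1% (13.97 to 57.7), 132 CPM at 1% to 3% (83.7 to 189.8), 410.2 CPM at 3% to 10% (371 to 517, 6 mice), and 1267 CPM at 10% or more (941 to 1582, 3 mice). From bin to bin the ranges over mice did not overlap, and only the last 2 bins hold fewer mice than 9, the last of them those of NZW alone. In the 3 NZW mice, which hold all bins, the means were 0.797, 31.7, 118, 388.6, and 1267 CPM. Over all 9 mice, those with too few cells for a value included, these bins held 1061, 378, 312, 258, and 92 cells, and 59 of the last were from NZW mice.

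The ubiquitous form, Alas1, took the opposite course over the first bins. Its mean was 21.2 CPM under 0.1% globin (10.1 to 33.2), 18.04 CPM at 0.1% to 1% (8.52 to 37.8), and 8.07 CPM at 1% to 3% (0 to 21.4). In the later bins it was 13.6 CPM (0 to 28.0) and 22.8 CPM (0 to 55.3), ranges that overlap those of the first bins, and the last bin rested on 4 Alas1 UMIs. In the NZW mice alone the means were 29.1, 12.02, 15.1, 16.1, and 22.8 CPM, so that the lowest bin was that of 0.1% to 1% globin.

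The enzymes between the first and the last step were present before globin and rose with it. Alad, which joins the product of the first step into a pyrrole, rose from a mean of 623 CPM under 0.1% globin to 1406, 1958, 2477, and 4202 CPM in the later bins. Uros, which closes the tetrapyrrole ring, was at 34.5, 100.1, 127, 171, and 224 CPM, and Urod, which removes carboxyl groups from its side chains, at 192, 322, 430.2, 553, and 684 CPM. The later bins hold fewer mice and a larger part of NZW mice, in which Alad was higher than in NZB mice. In the 3 NZW mice alone Alad was at 790.3, 1744, 2435, 3156, and 4202 CPM, Uros at 28.3, 88.8, 116, 170.6, and 224 CPM, and Urod at 182, 312, 438, 576, and 684 CPM, each mean higher than that of the bin before.

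The enzymes of the last, again mitochondrial, steps behaved likewise. Cpox, an oxidase of side chains, had means of 333, 635, 819, 1092, and 1229 CPM in the 5 bins, and Ppox, which oxidizes the ring to protoporphyrin, 29.2, 76.9, 113, 148, and 248 CPM. Fech, which inserts iron to make haem, was at 77.9, 169.6, 256, 380.2, and 759.9 CPM. Its range over mice in the last bin (461 to 949) lay above that under 0.1% (66.9 to 86.8). The means of these enzymes were higher in each bin than in the one before in the 3 NZW mice alone too, where Fech was at 81.6, 174, 303, 402.8, and 759.9 CPM. The plot of levels by globin share shows all 8 genes.

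**Figure D1:**
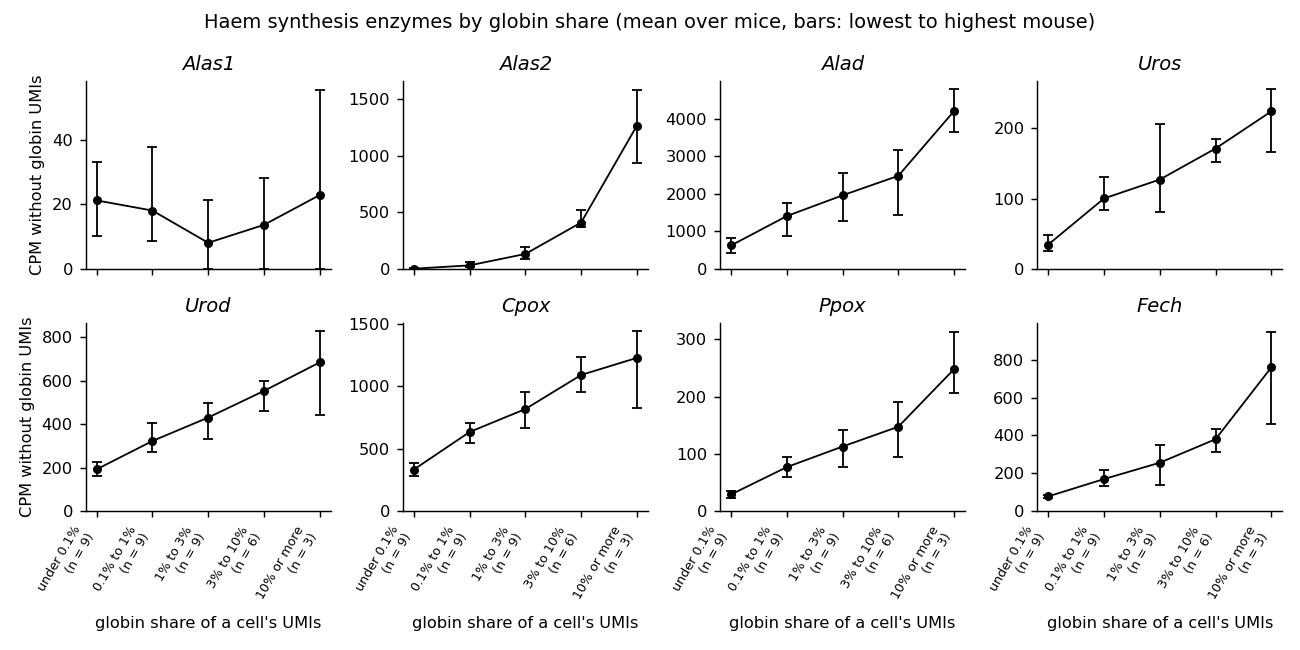
Levels of the 8 enzymes (y axis, CPM with globin UMIs left out, 1 scale per gene) against the globin share of a cell's UMIs (x axis, 5 bins, n mice in brackets); points are means over mice and bars run from the lowest to the highest mouse. Alas2 goes from 1.88 to 1267 CPM, 6 other enzymes rise in each bin, and Alas1 is lowest at 1% to 3% globin; the last bin holds NZW mice only.

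These stages were compared within mice in 1 fit over all 9 mice, for cells with 1% or more globin against cells under 1%. All 8 enzymes passed the test, 7 higher and 1 lower, where 61.1% of the 6728 genes tested passed, 28.9% higher and 32.2% lower. Alas2 was at 4.31 to 12.6 CPM over the 9 mice under 1% globin and at 195 to 469 CPM above, a log2 difference of 5.13 (SE 0.10, 35.1-fold, adjusted p in edgeR's quasi-likelihood test at or under 1e-12). The sets did not overlap in any mouse. Ppox (1.78, SE 0.10), Fech (1.77, SE 0.07), Uros (1.60, SE 0.09), Alad (1.49, SE 0.04), Cpox (1.26, SE 0.05), and Urod (1.19, SE 0.06) followed, each with an adjusted p at or under 1e-12. Alas1 was lower, with a log2 difference of -0.99 (SE 0.25, adjusted p in edgeR = 4.79e-04). Its UMIs numbered 45 above the limit and 328 below it. The median of the 8 differences was 1.54, against -0.04 over all genes tested. In sums over cells, fewer cells holding a transcript and less of it per cell cannot be told apart.

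The 10% limit could be tested in the 3 NZW mice. The late gate exceeded the early gate in 7 of the 8 enzymes, where 23.5% of 6376 genes were called and 9.88% were called higher. Alas2 was at 804, 1080.0, and 1249 CPM in the late gates against 68.5 to 87.5 CPM in the early gates of these mice, a log2 difference of 3.98 (SE 0.19, 15.8-fold, adjusted p in edgeR at or under 1e-12). Fech rose by 2.01 (SE 0.19) on the log2 scale, Ppox by 1.63 (SE 0.29), Uros by 1.53 (SE 0.29), Alad by 1.32 (SE 0.15), Urod by 1.09 (SE 0.19), and Cpox by 0.96 (SE 0.17). Alas1 did not pass the test (-0.19, SE 0.92, adjusted p in edgeR = 0.912). The late gate of NZW mouse 1 also held neutrophil markers at a summed 39950 CPM, against 663 and 4476 CPM in the other two, and macrophage markers at 2413 CPM against 269 and 167 CPM, and their part in these values was not tested. With cells of at most 5% mitochondrial UMIs, Ppox (0.36, adjusted p in edgeR = 0.542) and Uros (0.94, adjusted p = 0.0767) lost the call.

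Among the 8 enzymes in the erythroid sets, the largest difference between NZB and NZW was that of Alad, which was lowest in NZB mice, intermediate in NZBWF1 mice, and highest in NZW mice. In the early gate, Alad was at 807, 639, and 663 CPM in the NZB mice, 1299, 1059, and 830.0 CPM in the NZBWF1 mice, and 1659, 1542, and 1483 CPM in the NZW mice. The strains did not overlap. The means were 703 ± 90.5 (SD, n = 3) in NZB and 1561.5 ± 89.8 (SD, n = 3) in NZW mice, a log2 difference of -1.13 (SE 0.12, 2.19-fold lower in NZB, adjusted p in edgeR = 5.02e-07).

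The difference in Alad was also present at either side of the 1% globin limit. Under 1% globin, Alad was at 662, 519.8, and 563 CPM in NZB mice, at 978, 803, and 685 CPM in NZBWF1 mice, and at 1148, 1063, and 1070.0 CPM in NZW mice. With 1% or more, the values were 1743, 1339, and 1387 CPM in NZB, 2181, 2054, and 2163 CPM in NZBWF1, and 2714, 2818, and 2759 CPM in NZW mice. Neither set had an overlap between strains. Under the limit the median globin share was 0.0156% to 0.027% in NZW and 0.00846% to 0.0099% in NZB mice, and above it 3.46% to 4.01% and 1.85% to 4.49%. NZB minus NZW was -0.87 (SE 0.10, adjusted p in edgeR = 1.03e-07) below the limit and -0.90 (SE 0.11, adjusted p = 1.02e-08) above it. The rise of Alad across the limit did not differ detectably between these strains (difference of the log2 changes 0.00, SE 0.10, adjusted p in edgeR = 1).

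**Figure D2:**
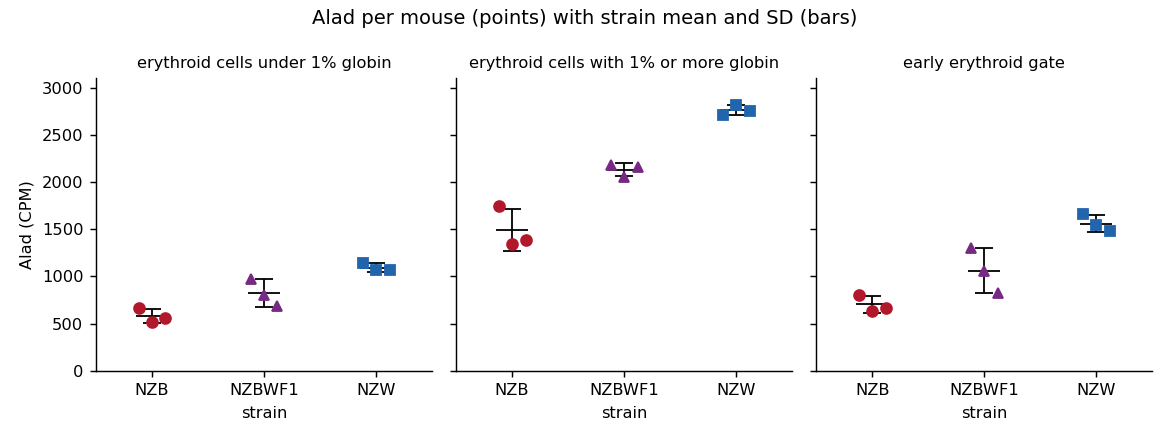
Alad in CPM (y axis, from 0) in each mouse (points) of the NZB, NZBWF1, and NZW strains (x axis), in erythroid cells under 1% globin, in those with 1% or more, and in the early gate; bars are strain means and SD, n = 3. In each panel the 3 NZB mice are lowest, the 3 NZBWF1 mice lie between, and the 3 NZW mice are highest, from 519.8 to 2818 CPM over the panels.

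The hybrid could be set against each parent, in comparisons that share mice with each other and with that of the parents. In the early gate, Alad was higher in NZBWF1 than in NZB mice by 0.54 on the log2 scale (SE 0.12, adjusted p in edgeR = 0.0178), 1 of 8 enzymes called where 1.63% of 8649 genes were, and lower than in NZW mice with a difference of -0.59 (SE 0.12, adjusted p = 0.00633). The excess over NZB was also called with 1% or more globin (0.52, SE 0.11, adjusted p in edgeR = 0.00525, 0.911% of genes called) and under 1% (0.45, SE 0.11, adjusted p = 0.0142, 1.87%). The deficit from NZW was called under 1% globin (-0.43, SE 0.10, adjusted p in edgeR = 0.0195, 1.63%) and not above (-0.38, SE 0.11, adjusted p = 0.0977), where 0 of 7 enzymes were called with edgeR (1.01% of genes), 3 had an unadjusted p under 0.05, and DESeq2 called 1, Alad. Against the mean of the parents Alad differed by -0.02 (SE 0.10) in the early gate, 0.07 (SE 0.10) with 1% or more globin, and 0.01 (SE 0.09) under 1%. With edgeR 0 of the enzymes were called in that contrast in each of the 3 sets, where 0.428%, 0.218%, and 0.704% of genes were. At an unadjusted p under 0.05 the numbers were 1 (Cpox), 2 (Fech and Uros), and 0, and DESeq2 called 0 in each.

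With 3 mice a strain, several of the calls of the hybrid were lost when any 1 of several mice was left out or cells were limited otherwise. The excess of Alad over NZB in the early gate did not pass without NZB replicate 2 (0.48, adjusted p in edgeR = 0.153), NZB replicate 3 (0.49, 0.115), or NZBWF1 replicate 2 (0.53, 0.101), nor did it with cells of at most 5% mitochondrial UMIs (0.55, 0.0747). With 1% or more globin it did not pass without NZB replicate 2 (0.43, adjusted p in edgeR = 0.187) or NZB replicate 3 (0.47, 0.121). Under 1% globin the same held without NZB replicate 2 (0.37, 0.19), NZB replicate 3 (0.40, 0.105), NZBWF1 replicate 2 (0.45, 0.0658), and at 5% mitochondrial UMIs (0.39, 0.652). The deficit from NZW in the early gate was lost without NZW replicate 1 (-0.54, adjusted p in edgeR = 0.051). Under 1% globin it was lost without any 1 NZW mouse (-0.45 to -0.38, adjusted p in edgeR 0.0837 to 0.12), without NZBWF1 replicate 2 (-0.43, 0.102) or 3 (-0.34, 0.119), with at most 5% mitochondrial UMIs (-0.35, 0.816), and with the split at 2% (-0.42, 0.0861) or 0.5% globin (-0.35, 0.0582). The direction of Alad was kept in each of these. By contrast, the difference of Alad between NZB and NZW passed in all 24 alternatives in each of the 3 sets. Some of these leave a set unchanged and could not differ, as given in the closing section.

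In the early gate the last enzymes also differed between the parents. Fech was at 115, 118, and 117 CPM in NZB mice, 152, 141, and 97.2 CPM in NZBWF1 mice, and 184, 171, and 173 CPM in NZW mice. Ppox was at 54.0, 41.9, and 42.8 CPM in NZB, 66.3, 61.2, and 41.7 CPM in NZBWF1, and 76.6, 72.1, and 70.2 CPM in NZW mice. For both genes NZB and NZW did not overlap, while the NZBWF1 mice ranged across the NZB values. NZB minus NZW was -0.57 (SE 0.11, adjusted p in edgeR = 0.00147) for Fech and -0.66 (SE 0.15, adjusted p = 0.00347) for Ppox. With Alad, 3 of 8 enzymes were thus called lower in NZB, where 4.61% of 8649 genes were called lower and 8.27% in either direction. Fech was lower in NZBWF1 than in NZW mice too (-0.47, SE 0.11, adjusted p in edgeR = 0.0232, with 2.12% of genes called), a call lost without NZW replicate 1 (-0.44, 0.108), 2 (-0.50, 0.0849), or 3 (-0.50, 0.0814), or NZBWF1 replicate 3 (-0.32, 0.176).

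The globin share of the early gate moved with the strains. Its part in the calls of that gate between NZB and NZW, those of Alad, Fech, and Ppox among them, was not tested. The median globin share of early gate cells was 0.181% to 0.406% in the NZW mice, 0.0189% to 0.033% in NZB mice, and 0.00815% to 0.143% in NZBWF1 mice. Of the cells of both sets split at 1% globin, 43.9% ± 4.30 (SD, n = 3) lay at or above the limit in NZW, 22.6% ± 1.78 in NZB, and 26.8% ± 10.6 in NZBWF1 mice (exact permutation test of the 3 strains together over 280 partitions, p = 0.0321, adjusted over 3 shares 0.0964). The 11 erythroid markers of the early gate summed to 12870 to 14050 CPM in NZB, 11180 to 17160 CPM in NZBWF1, and 19130 to 21180 CPM in NZW mice. These markers include the globin genes Hba-a1, Hba-a2, Hbb-bs, and Hbb-bt, so their sum is not separate from the globin share. On either side of the 1% limit the differences of Fech and Ppox were smaller. Under 1% globin, Fech was -0.25 (SE 0.12, adjusted p in edgeR = 0.238) and Ppox -0.24 (SE 0.16, adjusted p = 0.483). With 1% or more, Fech was -0.24 (SE 0.13, adjusted p in edgeR = 0.405) and Ppox -0.51 (SE 0.18, adjusted p = 0.116). Alad alone of the enzymes was called in these sets, where 6.65% (8517 genes) and 4.06% (5052 genes) were.

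The other enzymes were not called between the parents in the early gate. Alas2 was at 44.3, 39.5, and 39.0 CPM in NZB mice, 91.0, 58.3, and 18.2 CPM in NZBWF1 mice, and 87.5, 68.5, and 70.5 CPM in NZW mice. The widest spread was that of the hybrid. The difference of NZB minus NZW was -0.85 (SE 0.43, adjusted p in edgeR = 0.352). Under 1% globin it was 0.04 (SE 0.31, adjusted p = 0.967) and above the limit -0.12 (SE 0.16, adjusted p = 0.804). With 1% or more globin, Alas2 was at 307, 273, and 314 CPM in NZB, 469, 275, and 195 CPM in NZBWF1, and 319.7, 316, and 330.2 CPM in NZW mice. The highest NZB mouse (314 CPM) lay close to the lowest NZW mouse (316 CPM), and the hybrid mice lay both above and below the parents.

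Cpox (-0.28, SE 0.11, adjusted p in edgeR = 0.121), Alas1 (-0.28, SE 0.24, 0.584), Urod (-0.18, SE 0.10, 0.313), and Uros (-0.06, SE 0.15, 0.861) did not pass in the early gate either. Cpox was at 433 to 500.3 CPM in NZB and 551 to 605 CPM in NZW mice, and Urod at 252 to 274 and 292 to 318 CPM. Uros was at 54.9 to 75.5 CPM in NZB and 64.4 to 79.9 CPM in NZW mice, and Alas1 at 9.74 to 19.95 and 15.9 to 25.4 CPM. All 8 differences of the early gate were below 0, with a median of -0.42 against 0.01 over all genes tested. Under 1% globin 5 of 8 were below 0 with a median of -0.18, and with 1% or more 5 of the 7 enzymes tested, with a median of -0.12. Alas1 was too low for the filter on low counts in the last set.

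**Figure D3:**
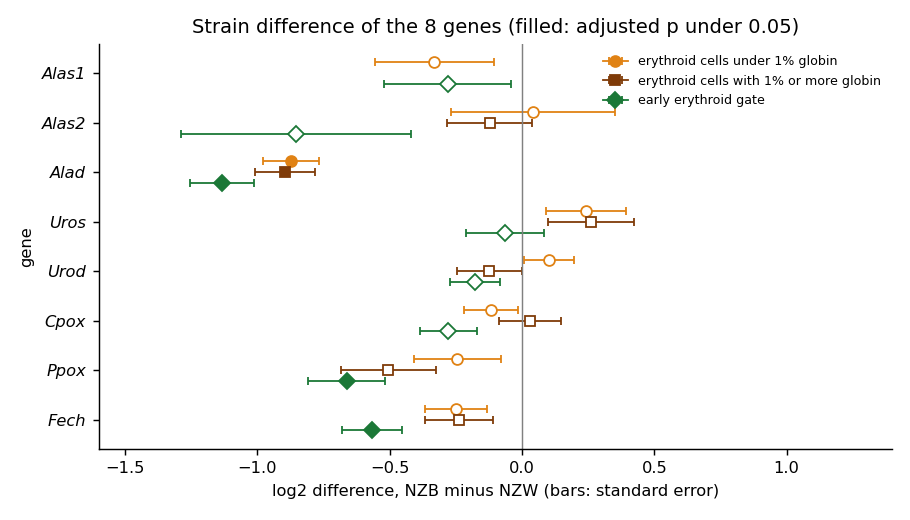
Log2 difference of NZB minus NZW (x axis, bars are standard errors of the edgeR fit) for the 8 enzymes (y axis) in erythroid cells under 1% globin, in those with 1% or more, and in the early gate; filled points passed an adjusted p of 0.05. Alad lies between -1.13 and -0.87 in all 3 sets, whereas Fech and Ppox are filled only in the early gate.

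None of the 8 enzymes was called with edgeR for a change across the 1% limit that differed between the strains. The difference of that change between NZB and NZW was called for 2 of 6728 genes (0.0297%), and that between NZBWF1 and the parents for 1 (0.0149%), none of them an enzyme with either edgeR or DESeq2. The enzymes with an unadjusted p under 0.05 numbered 0 for the parents and 2 for the hybrid, Fech and Uros. Among the enzymes the largest values for the hybrid were -0.50 for Uros (SE 0.20, adjusted p in edgeR = 0.819) and -0.39 for Fech (SE 0.14, adjusted p = 0.8).

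Genes that feed or serve the pathway were read as a list of 26, among them mitochondrial carriers, iron importers, iron-sulphur cluster genes, and haem-degrading enzymes. Of 25 tested across the 1% limit, 20 were higher and 1 lower in cells with more globin, with a median of 0.74, where 28.9% of all genes were called higher and 32.2% lower. Slc25a37, which carries iron into the mitochondrion, rose from 55.1 ± 11.1 to 506 ± 131 CPM (SD, n = 9), a log2 difference of 3.33 (SE 0.07). Tfrc, the transferrin receptor, rose from 197 ± 33.1 to 537 ± 98.5 CPM, by 1.56 (SE 0.06) on the log2 scale. Abcb10, a mitochondrial transporter of erythroid cells, rose by 1.999 (SE 0.07), and Hmox2, a constitutive haem oxygenase, was lower (-0.58, SE 0.17, adjusted p in edgeR = 0.00197). In the NZW late gate 12 of 24 were called, each of them higher, where 23.5% of all genes were called and 9.88% higher.

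Between the strains, 2 of the 26 partner genes passed in the early gate, where 8.27% of all genes did. Abcb6, a porphyrin transporter, was at 45.3 ± 3.38 CPM in NZB and 67.5 ± 8.98 CPM in NZW mice (SD, n = 3; -0.60, SE 0.16, adjusted p in edgeR = 0.0148). Hmox1, the inducible enzyme that breaks haem down, was at 15.9, 9.36, and 9.50 CPM in NZB, 10.4, 17.6, and 35.9 CPM in NZBWF1, and 4.34, 3.06, and 1.70 CPM in NZW mice. The NZW mice were lowest, and the differences were 1.96 for NZB minus NZW (SE 0.53, adjusted p in edgeR = 0.0332) and 3.03 for NZBWF1 minus NZW (SE 0.46, adjusted p = 0.00172). Against the mean of the parents the hybrid was higher by 2.05 (SE 0.35, adjusted p in edgeR = 0.0141). Against NZB it was not called in this gate (1.07, SE 0.38, adjusted p in edgeR = 0.231), and the mice of these strains overlapped.

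The summed macrophage markers of the early gate, with all 7 markers present, were 7.23 to 8.63 CPM in NZW, 25.7 to 62.9 CPM in NZB, and 33.8 to 65.8 CPM in NZBWF1 mice. Cells of macrophage-like clusters numbered 5 in the early gate and 3 under 1% globin. The part of macrophage RNA in the Hmox1 values was not tested. Without these cells, the Hmox1 difference of NZB minus NZW in the early gate was 1.63 (SE 0.53, adjusted p in edgeR = 0.0703). That of NZBWF1 minus NZW was 3.08 (SE 0.43, adjusted p in edgeR = 3.25e-04). With 1% or more globin, 2 of 24 partner genes tested were called for NZB minus NZW, where 4.06% of all genes were. Fam210b, a mitochondrial protein that aids iron delivery, was at 188 ± 12.9 CPM in NZB and 113 ± 6.68 CPM in NZW mice (SD, n = 3; 0.71, SE 0.16, adjusted p in edgeR = 0.00196). Abcb10 was at 368 ± 55.0 and 281 ± 20.7 CPM in the same cells (0.42, SE 0.13, adjusted p = 0.0425). Under 1% globin 1 of 26, Hmox1, was called for NZB minus NZW, where 6.65% of all genes were (1.75, SE 0.52, adjusted p in edgeR = 0.0393). Without macrophage-like cells it was not called, at a similar difference and a larger error (1.69, SE 0.63, adjusted p in edgeR = 0.129).

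Of 7 erythroid regulators, 5 (Gata1, Klf1, Nfe2, Tal1, and Zfpm1) were higher in cells with 1% or more globin, where 28.9% of all genes were, and Klf1 by 0.61 (SE 0.05) on the log2 scale. Klf1 is also an early gate gene, used to select the cells under 1% globin and not those above, so its difference is not independent of the selection. Between NZB and NZW, 1 of 7, Gata1, was called in the early gate (8.27% of all genes) and under 1% globin (6.65%). In the early gate it was at 137, 117, and 136 CPM in NZB and 163, 172, and 166 CPM in NZW mice, without overlap (-0.35, SE 0.11, adjusted p in edgeR = 0.0371). Under 1% globin it was also lower in NZB (-0.34, SE 0.11, adjusted p = 0.0443).

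Outside the erythroid gates, Alas1 was the form found in the marrow. It was highest in granulocyte-monocyte precursor-like cells at 316 ± 45.0 CPM (SD, n = 9), followed by macrophage-like cells at 101 ± 31.0 CPM and neutrophil-like cells at 98.0 ± 15.2 CPM. On the log2 scale, precursor-like cells exceeded neutrophil-like cells by 1.68 ± 0.33 in 9 of 9 mice, and macrophage-like exceeded dendritic cell-like cells by 0.90 ± 0.56 in 9 of 9 mice (exact sign-flip permutation tests, two-sided, each p = 0.00391, the smallest that 9 mice allow, adjusted 0.0299). Neutrophil-like and macrophage-like cells did not differ beyond their spread (p = 0.957, exact permutation test). The macrophage-like class also carried neutrophil markers at a summed 359200 to 445000 CPM and its own at 2181 to 5767 CPM, so its Alas1 level cannot be told apart from that of neutrophil RNA. Below these came dendritic cell-like cells (52.0 ± 10.5 CPM), stem or progenitor-like cells (51.4 ± 33.3 CPM), and monocyte-like cells (43.5 ± 7.38 CPM). Basophil or mast cell-like cells were at 35.3 ± 22.1 CPM, and B cell-like, NK cell-like, and T cell-like cells at 18.98, 18.2, and 16.7 CPM, near the early erythroid gate at 17.3 ± 5.17 CPM. From dendritic cell-like cells downward, no neighbours in this order differed with a test past the threshold.

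Alas2 stood apart by its narrow range. The mean was 1045 ± 225 CPM (SD, n = 3) in the late gate and 57.4 ± 24.2 CPM (SD, n = 9) in the early gate, which exceeded the next class, macrophage-like cells, in 9 of 9 mice (log2 difference 4.49 ± 1.44, exact sign-flip permutation test, p = 0.00391, adjusted 0.0299). All other classes held 0 to 7 Alas2 UMIs each, and no neighbours among them differed with a test past the threshold. RNA free in the suspension, estimated from nearly empty barcodes at 0.587% to 1.17% of a median cell, would account for 66.8% of the Alas2 UMIs of B cell-like, 91.6% of neutrophil-like, and 100.9% of monocyte-like cells. Alas2 in these classes was not distinguished from free RNA, while in macrophage-like and dendritic cell-like cells, with 5 and 6 Alas2 UMIs, the share was 7.81% and 30.6%. The macrophage-like class carried more neutrophil than macrophage markers, as given above, so its Alas2 level cannot be read as that of macrophages. For Alas1 it was 0.0915% to 4.90% over the classes.

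**Figure D4:**
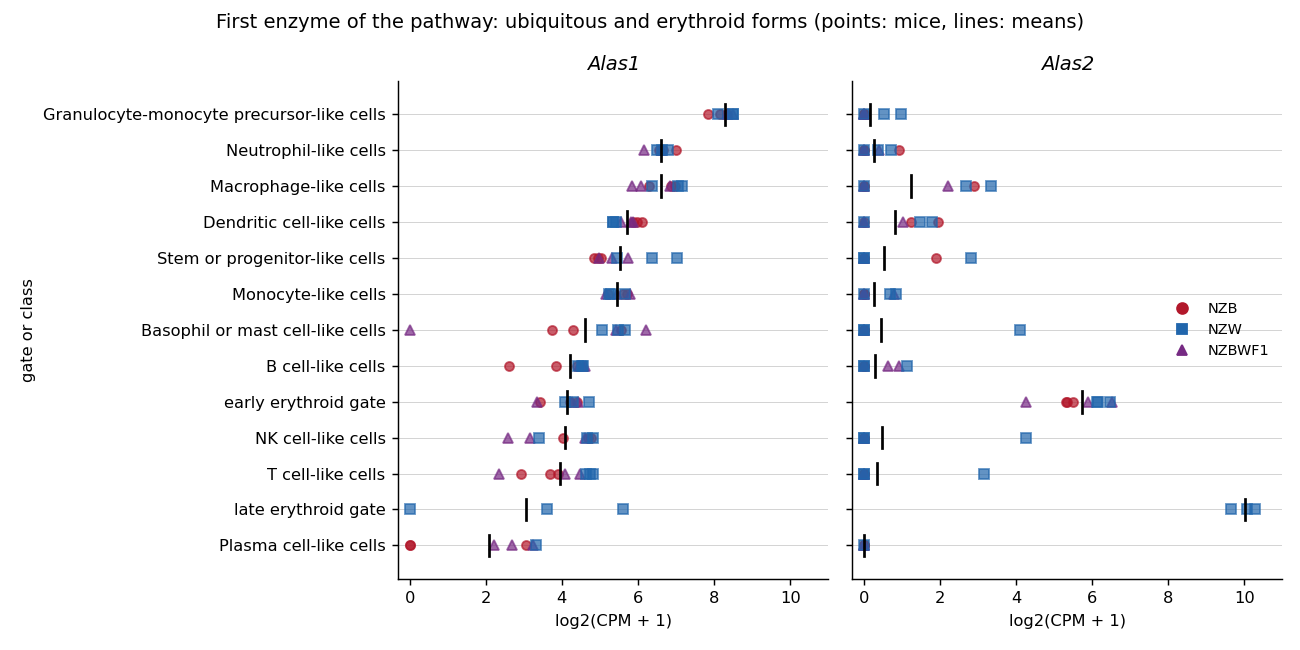
Levels of Alas1 (left) and Alas2 (right) on the scale log2(CPM + 1) (x axis) in each gate or class with 3 or more mice (y axis, ordered by Alas1); points are mice, coloured by strain, and black lines are means. Alas1 is highest in granulocyte-monocyte precursor-like cells and Alas2 in the late and early erythroid gates, with other classes near 0.

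The later enzymes were detected at low levels across the marrow, with the values of Alad given here. Alad was at 115 ± 38.8 CPM in NK cell-like, 109 ± 63.6 CPM in basophil or mast cell-like, 104 ± 22.3 CPM in stem or progenitor-like, and 78.0 ± 15.5 CPM in B cell-like cells, and at 4.95 ± 2.83 CPM in neutrophil-like cells (SD, n = 9). The nearly empty barcodes held Alad at 105 to 870 CPM, and the value of neutrophil-like cells was not told apart from free RNA. Over 13 gates and classes, the Pearson correlations of class means among the 7 enzymes other than Alas1 were 0.74 to 0.96, whereas those of Alas1 with the others were -0.57 to -0.14. These points share mice and libraries, and the erythroid gates set much of their range. Among 3436 genes, those with the pattern most like that of Alas2 were Epb42, a protein of the red cell membrane skeleton (r = 0.9945), Fn3k (0.9944), the globin gene Hba-a2 (0.9944), the Duffy chemokine receptor Ackr1 (0.993), and 5430401H09Rik (0.992). Hba-a2 is also a gene that defines the erythroid gates, so its likeness is not independent of them. Among the genes most like Alas1 were Lta4h, an enzyme of leukotriene synthesis (r = 0.887), Lmo1 (0.882), Txndc17 (0.871), and Sem1 (0.869).

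Differences between the strains were also tested in other classes. Over 11 classes, 37 tests of an enzyme could be made for NZB minus NZW and 4 passed, where 9.32% of all 60108 tests of genes did, a share close to that of the enzymes. The largest difference was that of Alas1 in stem or progenitor-like cells. It was at 29.7, 31.6, and 27.6 CPM in NZB, 30.5, 52.3, and 38.7 CPM in NZBWF1, and 81.5, 43.0, and 128 CPM in NZW mice. NZB lay below NZW without overlap (-1.55, SE 0.31, adjusted p in edgeR = 0.00171, 2.63% of genes called). Without NZW replicate 3, the highest mouse, the difference was -1.03 (adjusted p = 0.128). In these cells the summed markers of granulocyte-monocyte precursors were 1902 to 2154 CPM in NZB and 3963 to 5441 CPM in NZW mice, with all 6 markers present. Stem or progenitor markers (389 to 472 against 521 to 711 CPM), monocyte markers (205 to 266 against 319.7 to 489 CPM), NK cell markers (166 to 214 against 72.5 to 85.9 CPM), and basophil or mast cell markers (27.6 to 32.4 against 58.8 to 109.8 CPM) did not overlap between NZB and NZW either, and the part of these in the result was not tested.

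Alas1 differed the other way in dendritic cell-like cells. It was at 67.5, 57.8, and 62.2 CPM in NZB, 45.5, 57.8, and 55.8 CPM in NZBWF1, and 42.1, 39.6, and 39.6 CPM in NZW mice. NZB lay above NZW without overlap (0.62, SE 0.22, adjusted p in edgeR = 0.0485, 12.7% of genes called). The call passed in 3 of 15 alternatives and was lost without any 1 mouse of NZB (0.57 to 0.69, adjusted p in edgeR 0.0611 to 0.128) or NZW (0.62 to 0.65, 0.0729 to 0.146), and without NZBWF1 replicate 2 (0.63, 0.0539) or 3 (0.63, 0.0515). In these cells stem or progenitor markers summed to 1080.0 to 1638 CPM in NZB and 82.7 to 115 CPM in NZW mice. Dendritic (10330 to 10740 against 6307 to 7602 CPM), monocyte (941 to 1066 against 1267 to 2011 CPM), B cell (168 to 207 against 258 to 367 CPM), plasma cell (250.3 to 319 against 374 to 498 CPM), and megakaryocyte markers (13.02 to 20.3 against 25.8 to 39.6 CPM) did not overlap either, and the part of these in the result was not tested.

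Alad was lower in NZB than in NZW in B cell-like cells, at 61.9, 60.4, and 55.3 CPM against 84.6, 100.005, and 93.7 CPM (-0.61, SE 0.17, adjusted p in edgeR = 0.0482, 2.71% of genes called). The NZBWF1 mice, at 81.4, 85.9, and 78.4 CPM, lay above the NZB mice, and 2 of 3 lay below the lowest NZW mouse. In monocyte-like cells Alad was at 16.9, 15.95, and 12.3 CPM in NZB, 17.4, 19.1, and 21.9 CPM in NZBWF1, and 24.0, 19.1, and 36.3 CPM in NZW mice (-0.79, SE 0.25, adjusted p in edgeR = 0.0215, 24.4% of genes called), again with NZB below NZW. In the monocyte-like cells B cell markers summed to 59.5 to 117 CPM in NZB and 126 to 319 CPM in NZW mice, dendritic markers to 415 to 489 and 655 to 768 CPM, and granulocyte-monocyte precursor markers to 1953 to 3192 and 993 to 1334 CPM, without overlap. Monocyte (3780 to 4533 against 4650 to 5022 CPM), plasma cell (118.5 to 173 against 204 to 244 CPM), stem or progenitor (6.16 to 13.5 against 15.99 to 28.3 CPM), and megakaryocyte markers (5.80 to 6.77 against 15.99 to 29.0 CPM) did not overlap there either. Plasma cell markers in the B cell-like cells summed to 731 to 1143 and 672 to 730.0 CPM. The part of these in the calls of Alad was not tested. Free RNA would account for 4.01% of the Alad UMIs of B cell-like and 14.1% of those of monocyte-like cells. The B cell-like call was lost without any 1 mouse of NZB or NZW (-0.67 to -0.55, adjusted p in edgeR 0.0641 to 0.277) and without NZBWF1 replicate 3 (-0.62, 0.0509). The monocyte-like call was lost without NZB replicate 2 (-0.88, 0.0501), NZB replicate 3 (-0.67, 0.0966), or NZW replicate 3 (-0.48, 0.244). With DESeq2 only the stem or progenitor-like call of the 4 passed. For NZBWF1 against NZB, NZW, and the mean of the parents, 0 of the 37 tests passed with edgeR in other classes and 0 with DESeq2, where 4.03%, 1.05%, and 0.522% of all tests passed with edgeR, and 4, 3, and 1 had an unadjusted p under 0.05.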

How the data were processed

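Per the submitters' processing notes, reads were demultiplexed with bcl2fastq 2.20 and counted with Cell Ranger 3.1.0 on mm10, and the authors deposited the 9 libraries merged as whole UMI counts per gene and barcode, without normalization. That reference is of another strain, and neither the effect of strain sequence on counting nor the copy number of these genes, Alad included, in the strains was analysed here. The number at the end of a barcode was taken as the library's place in the deposited list of merged libraries.

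Of 68444 called barcodes, 39051 were kept for having 1000 or more UMIs and 500 or more genes, with no more than 10% of UMIs mitochondrial, and 2526 (6.47%) were removed as doublets scored with an own version of the Scrublet procedure, 0.8% per 1000 called barcodes. Cells were clustered with own code for variable genes, principal components, and a graph of shared neighbours, partitioned with leidenalg 0.10.2. This gave 38 clusters in all, which were named from markers except for 1 cluster (687 cells) that stayed unnamed. From the final clustering 2559 genes that differed between strains within a class were left out. Names rebuilt in this way may differ from those of the study. The makeup of free RNA was taken from all barcodes with under 100 UMIs, and its amount per droplet from those with 10 to under 100 UMIs.

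UMIs were summed per mouse and gate or class (10 cells or more) and fitted with edgeR 4.0.16 (TMM, filterByExpr, robust quasi-likelihood test) in R 4.3.3, with Benjamini-Hochberg adjustment over all genes tested and a threshold of 0.05. A run on simulated counts covered only the fit of NZB minus NZW, in the early gate and both sets split at 1% globin. P-values below 1e-12 were written as 1e-12. The late gate could not be fitted between strains as planned, since only the NZW mice held 10 cells. All 3 contrasts share mice, and the spread is that between 3 separate mice per strain. Levels of classes next to each other were compared by exact sign-flip tests on log2(CPM + 1). Named were all 8 enzymes, the called partner genes with the 6 smallest p in each erythroid set for NZB minus NZW, and the 5 genes most like Alas1 and Alas2, of which 1 is not reported here. Slc25a37, Tfrc, Abcb10, Hmox2, Klf1, and the hybrid's Hmox1 values were named after their values were seen. The enzymes and lists were chosen with earlier results of these data known. Replicate numbers were not used to pair mice across strains in the main fits. In the early gate, correlations of deviations were -0.08 to 0.38 for same-numbered and -0.31 to 0.25 for other-numbered mice, ranges that overlap. In each strain, replicate 1 had the lowest and replicate 2 the highest early gate share of cells. Whether mice of the same number shared a batch is not stated in the labels and was not tested. Alternatives were DESeq2 1.42.0, other scalings, filters, gate limits and quality limits, subtraction of free RNA, and leaving out each mouse.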

Additional observations from a re-analysis of the deposited data

Results flagged for a closer look

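Alas1 differed between NZB and NZW in opposite directions in 2 classes, and the test of the difference itself passed: NZB minus NZW was lower in stem or progenitor-like than in dendritic cell-like cells by a log2 difference of -2.16 (SE 0.35, adjusted p in edgeR = 6.55e-05, 9 mice, 6722 genes). This pair was chosen after both values were seen, so the test is not independent of the choice. The call in stem or progenitor-like cells was lost without NZW replicate 3, and that in dendritic cell-like cells was lost in most alternatives. In stem or progenitor-like cells the 3 NZB mice lay at 27.6 to 31.6 CPM and the 3 NZW mice at 43.0 to 128 CPM, while in dendritic cell-like cells they lay at 57.8 to 67.5 and 39.6 to 42.1 CPM. Several marker sums moved with the strains, among them those of granulocyte-monocyte precursors (1902 to 2154 CPM in NZB, 3963 to 5441 CPM in NZW) in the first class and of stem or progenitor cells (1080.0 to 1638 against 82.7 to 115 CPM) in the second, and their part was not tested.

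Barcodes with 10% or more globin that met the limit on mitochondrial UMIs but failed those on UMIs or genes entered no main comparison. They numbered 142 (51 in NZB, 53 in NZW, and 38 in NZBWF1 mice) with 109676 UMIs. Of these, the 29 with 1000 or more UMIs and under 500 genes were let in by the alternative without a minimum of genes. All 142 barcodes together held 404 UMIs of Alas2, 137 of Fech, 49 of Alad, 33 of Urod, 32 of Cpox, 10 of Ppox, and 9 of Uros. In the NZW mice, the only strain with kept cells enough for a value at 10% or more globin, Alas2 was at 6969 CPM with globin left out over these barcodes pooled and at a mean over 3 mice of 1267 CPM in the kept cells, Fech at 3115 and 759.9 CPM, and Alad at 1690 and 4202 CPM. The pooled value and the mean over mice are built differently, 38 of the 53 NZW barcodes came from 1 mouse, and the values were not tested. Alas1 had 2 UMIs, both in NZW barcodes, too few to set beside the kept cells. Alad in these barcodes was at 829 CPM in NZB, 823 CPM in NZBWF1, and 1690 CPM in NZW mice, from 10, 7, and 32 UMIs, pooled over mice as well (34 of the 51 NZB and 19 of the 38 NZBWF1 barcodes came from 1 mouse), a description without a test.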

How the results depend on the processing

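Depth limits Alas1 in erythroid cells (45 UMIs above 1% globin) and every strain contrast of the late gate. No strain contrast of the planned late gate could be fitted. Without a minimum of genes per cell it could be, over 2 NZB, 3 NZW, and 1 NZBWF1 mice and 1193 genes, where Alad was again lower in NZB than in NZW (-0.97, SE 0.19, adjusted p in edgeR = 0.0118). The lone NZBWF1 mouse has no spread of its own, nor has the lone NZB mouse with 10 late gate cells where doublets were kept (Alad NZB minus NZW -1.11), so no test is drawn from either. A late gate at 30% globin or more, or at 10% to 50%, gave no strain fit.

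Over 660 alternatives tried for single enzymes with a call, 609 kept direction and call, 51 lost the call, and 0 reversed. The difference of Alad between NZB and NZW held in all 24 alternatives in the early gate (-1.45 to -1.07), with 1% or more globin (-1.10 to -0.81), and under 1% (-0.99 to -0.74), and so did Fech and Ppox in the early gate. These numbers include runs that could not differ from the main fit. Other limits of the late gate leave the early gate unchanged, and a stricter early gene rule leaves the cells with 1% or more globin unchanged. Counts of enzymes called moved as follows. With DESeq2 other classes fell to 1 for NZB minus NZW (4 in the fit reported), and cells with 1% or more globin rose to 1 for NZBWF1 minus NZW (0), which became 2 with no filter on low counts, 1 with the split at 0.5% globin, and 2 without macrophage-like cells. At most 5% mitochondrial UMIs gave 0 for NZBWF1 minus NZB in the early gate and under 1% globin, and 0 for NZBWF1 minus NZW under 1% globin, as did splits at 2% and 0.5% (each 1 in the fit reported). With no filter, other classes had 1 for NZBWF1 minus NZW (0). Leaving out 1 mouse gave 3 to 5 for NZB minus NZW, 0 to 2 for NZBWF1 minus NZB, 0 to 3 for NZBWF1 minus NZW, and 0 to 1 against the parents' mean in the early gate. Under 1% globin the ranges were 0 to 1 and 0 to 2 for the hybrid against NZB and NZW, and with 1% or more 0 to 1 for both. In other classes they were 1 to 4 for the parents and 0 to 1 for NZBWF1 minus NZW. Alas1 could not be tested across the 1% limit without NZW replicate 3 or at 5% mitochondrial UMIs, and the plasma cell-like fit could not be made without NZW replicate 3. The causes were not tested.

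The replicate block moved the count in other classes to 1 for NZBWF1 minus NZB (0 without it) and took the dendritic cell-like Alas1 call (0.62, adjusted p in edgeR = 0.0524). It changed no call in the erythroid sets, and whether the numbers mark a shared batch was not tested. The late gate's share of cells did not pass the exact permutation test of the 3 strains together (adjusted p = 0.129, NZB minus NZW -0.26 percentage points) and passed it with gates limited to erythroid-like clusters alone of the 7 alternatives run (adjusted p = 0.0429, range over them 0.0429 to 0.507, -0.227 points, a pair that 3 against 3 mice could not test below 0.10), and the NZB minus NZW difference of the early gate's share turned from 0.558 to -0.021 points without a minimum of genes.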
